A study of Mus musculus with 12 samples.

Results

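The endocannabinoid receptor CB1 and the enzymes that make and break down its lipid ligands were followed here in the amygdala of C57/BL6 mice. The set held 8 genes of the 47729 in the deposited table, found by matching each Ensembl identifier to its symbol in the GENCODE M21 annotation: Cnr1, Dagla, Daglb, Mgll, Abhd6, Abhd12, Napepld and Faah. All 8 were found, and all 8 passed the filter on low counts that left 26963 genes for testing. All animals were age-matched young adult females of a single isogenic strain and carried no allele or treatment. Each of the 12 mice went through a light/dark box, an elevated plus maze and a social interaction test, after which both amygdalae were removed and 1 RNA-seq library per mouse was sequenced in a single run. The labels gave a predicted anxiety state to 11 mice: less anxious (mice 3, 7 and 12), anxious (mice 1, 4, 8 and 11) and more anxious (mice 2, 6, 9 and 10). The submitters gave mouse 5 no state, and it entered no comparison between groups. The paper removed this mouse as an outlier in a principal component analysis of expression.

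CB1 is a G protein-coupled receptor found mostly on axon terminals, where it lowers transmitter release. Its ligands are lipids made on demand in the postsynaptic cell that travel backward across the synapse. The best known are 2-arachidonoylglycerol (2-AG) and anandamide. In the amygdala CB1 is most abundant on terminals of interneurons that contain cholecystokinin, and the system has long been studied for its part in fear and anxiety.

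The study formed the states from a principal component of expression in these same libraries, so a test between the states is not independent of expression. The behavior measures were taken apart from the RNA. Libraries held 31745630 to 45142355 estimated counts, and the ranges of the 3 states overlapped. Tissue was bulk, so fewer cells of a type and less RNA per cell cannot be told apart. Marker genes of the basolateral and the central amygdala had reads in all 11 mice, as did Pomc, Tshb and Lhb of the 6 pituitary markers and Pmch, Avp and Oxt of the 4 hypothalamic ones, while Prl, Gh, Cga and Hcrt were each at 0 in at least 1 mouse. Summed pituitary markers were at 4.002 to 4.72 CPM in less anxious, 2.81 to 57.7 CPM in anxious and 2.29 to 2.95 CPM in more anxious mice, so that the less and more anxious mice did not overlap. The 6 genes did not share a direction: by fitted level 3 were higher and 3 lower in more than in less anxious mice. Summed hypothalamic markers were at 0.703 to 4.80, 0.785 to 3.56 and 3.14 to 23.3 CPM, most of it Avp, and 4 of 4 had higher fitted levels in more than in less anxious mice. Of 64 marker genes for the cell types a dissection of this kind can hold, 0 were called across the states at an adjusted p of 0.05, and 14 had an unadjusted p below 0.05, beside 6.35% of all genes tested. Of these 14, 5 were pituitary markers. The 4 markers of all neurons had a median log2 difference of more against less anxious of 0.30 (4 higher) and the 5 of excitatory neurons 0.32 (4 higher), whereas that of the 6 astrocyte markers was -0.27 and that of the 6 endothelial markers -0.37 (all lower). The median was -0.18 for 3 inhibitory neuron, -0.10 for 6 oligodendrocyte and -0.19 for 6 microglia markers (all lower). It was -0.22 for 3 basolateral (all lower), -0.23 for 4 central amygdala (1 higher) and -0.37 for 6 choroid plexus markers (1 higher). The summed astrocyte markers were at 2765 to 3389 counts per 1000000 counts of the library (CPM) in less anxious and 2276 to 2634 CPM in more anxious mice, and the endothelial markers at 155 to 205 and 111 to 138 CPM, so that neither sum overlapped between these states. For single genes, less and more anxious mice did not overlap in 8.4% of all genes tested. The sums named here were picked from a longer set of marker lists. The part of these cell types in the results that follow was not tested.

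Messenger RNA of the 8 genes was present in every mouse, with 520 to 12908 estimated counts per gene and library. To compare levels between genes, CPM were divided by the length of the merged exons in kilobases. On this scale Abhd12 stood first with 82.3 ± 10.3 CPM per kb (SD, n = 11), and Cnr1 second with 27.8 ± 3.40. Mgll had 19.0 ± 1.98 and Abhd6 17.2 ± 1.12 CPM per kb. Faah and Dagla followed at 13.9 ± 1.94 and 13.3 ± 1.36. Napepld and Daglb were lowest, with 4.54 ± 0.57 and 3.76 ± 0.488 CPM per kb. The serine hydrolase Abhd12 was thus 2.96-fold above the receptor, and it exceeded Cnr1 in 11 of 11 mice (exact two-sided sign-flip permutation test on the log2 ratio, p = 0.000977, the smallest that 11 mice allow).

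Neighbors in this order differed by more than the spread between mice in most cases. Cnr1 over Mgll, Abhd6 over Faah and Dagla over Napepld each held in 11 of 11 mice with the same smallest p. Mgll was above Abhd6 in 8 of 11 mice (exact p = 0.0205) and Napepld above Daglb in 9 of 11 (exact p = 0.00586). Faah and Dagla did not differ beyond their spread, with Faah higher in 7 of 11 mice (exact p = 0.352). These p-values are unadjusted, over 7 neighboring pairs, and the order was set by the means of the same 11 mice. Each p measures how steady a ratio was between mice and does not cover an error in exon length. The order assumes that reads spread over all annotated exons, which a merged exon length only approximates.

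**Figure D1:**
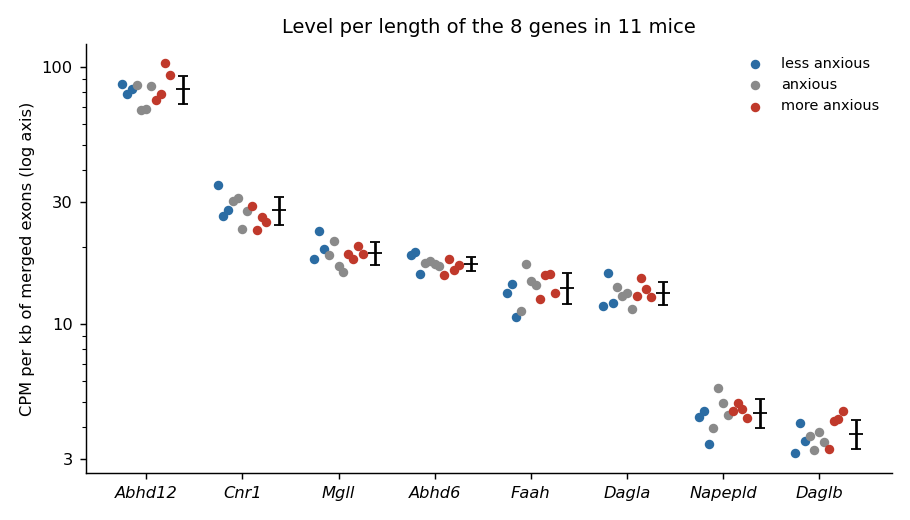
Level of each gene in CPM per kilobase of merged exons (log axis) in 11 mice. Points are mice colored by predicted anxiety state, and the bar beside them is the mean ± SD. Abhd12 stands above every other gene in every mouse, and the points of Faah and Dagla intermingle.

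Spread between the mice was near that of other genes. The coefficient of variation ran from 6.53% for Abhd6 to 14.0% for Faah, beside a median of 11.9% over the 10354 genes with a mean of at least 10 CPM. Of those genes 7.07% varied less than Abhd6. For each of the other 7 members that share lay between 35.3% and 63.8%, and 5 of them varied more than the median gene.

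Cnr1, which encodes CB1, lies on chromosome 4 at 33924593 to 33948831 on the plus strand (GRCm38, as all positions here). Its level was 224, 171 and 180.2 CPM in less anxious mice 3, 7 and 12. In anxious mice 1, 4, 8 and 11 it was 195, 199.7, 152 and 178 CPM, and in more anxious mice 2, 6, 9 and 10 it was 187, 150.2, 169 and 162 CPM. Mouse 3 was highest and mouse 6 lowest, and the states overlapped. The means were 192 ± 28.5 (SD, n = 3), 181 ± 21.6 (n = 4) and 167 ± 15.4 CPM (n = 4). In the fit with the first principal component (PC1) as a covariate, the log2 difference of more against less anxious was -0.15 (SE 0.11, 95% interval -0.38 to 0.09, edgeR adjusted p = 0.762). A fall below 0.768-fold or a gain above 1.06-fold therefore lies outside this interval. The 5 markers of CB1-rich interneurons summed to 158 to 214 CPM in less anxious, 218 to 254 CPM in anxious and 238 to 371 CPM in more anxious mice. Of the 5 fitted log2 differences of more against less anxious, 2 were above and 3 below 0, with a median of -0.004. The sum followed Cck, the cholecystokinin gene, at 124 ± 27.7, 169 ± 20.8 and 230.2 ± 60.0 CPM (log2 difference of more against less anxious 0.89, SE 0.21, adjusted p across the states = 0.504). Vip, Htr3a, Adarb2 and Slc17a8, the other markers of the list, had log2 differences of -0.004, 0.01, -0.14 and -0.34. In bulk tissue the cells that gave the Cck reads cannot be told apart. The 3 inhibitory neuron markers had a median log2 difference of -0.18 (all lower) and the 5 excitatory ones 0.32 (4 higher). The part of Cck-containing cells in the Cnr1 levels was not tested.

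Diacylglycerol lipases make 2-AG, and Dagla encodes the form that supplies most of it at synapses of the adult brain. Dagla (chromosome 19, 10245265 to 10304877, minus strand) was at 67.6, 91.1 and 69.5 CPM in less anxious mice 3, 7 and 12. It was at 80.3, 74.4, 75.9 and 65.8 CPM in anxious mice 1, 4, 8 and 11, and at 74.3, 87.0, 78.8 and 73.5 CPM in more anxious mice 2, 6, 9 and 10. The less anxious state thus held the highest value of the 11 mice (mouse 7), and the lowest came from anxious mouse 11. More against less anxious mice differed by 0.01 on the log2 scale (SE 0.10, 95% interval -0.21 to 0.23).

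Daglb, the form better known from microglia and the periphery, lies on chromosome 5 at 143464584 to 143505942 (plus strand). It was at 30.1, 39.4 and 33.5 CPM in the less anxious mice, in the order above. The anxious mice had 35.2, 31.0, 36.5 and 33.3 CPM and the more anxious mice 31.2, 40.2, 41.1 and 44.2 CPM. In the more anxious state 3 of 4 mice exceeded the 7 mice of the other states, and mouse 2 was among the lowest of all. The log2 difference of more against less anxious was 0.18 (SE 0.13, 95% interval -0.10 to 0.45, adjusted p = 0.757), the largest estimate of the 8 genes. Without mouse 2 it was 0.28, with an unadjusted edgeR p across the states of 0.0191, and without mouse 7 it was 0.31. Without mouse 10, 3 or 9 it was 0.09, 0.11 or 0.12. Exons of Rac1, which runs on the other strand, cover 2309 bases or 24.1% of the exon bases of Daglb.

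Breakdown of 2-AG falls to 3 of the enzymes, of which monoacylglycerol lipase, encoded by Mgll, is the main one in brain. Mgll (chromosome 6, 88724412 to 88828360, plus strand) was at 91.0, 117 and 100.01 CPM in less anxious, 94.4, 107, 85.4 and 81.2 CPM in anxious and 95.1, 91.3, 102 and 95.7 CPM in more anxious mice. The more anxious mice sat within the range of the less anxious ones. An antisense gene, Gm26588, covers 167 of the exon bases of Mgll, or 3.29%. The log2 difference of more against less anxious was -0.11 (SE 0.11, 95% interval -0.35 to 0.13).

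Abhd6, a membrane hydrolase that acts on 2-AG in the postsynaptic cell, lies on chromosome 14 at 8002902 to 8056763 (plus strand). It was the steadiest gene, at 44.2, 45.2 and 37.3 CPM in less anxious, 41.0, 41.6, 40.5 and 39.8 CPM in anxious and 36.7, 42.4, 38.4 and 40.4 CPM in more anxious mice. All 11 values fell between 36.7 and 45.2 CPM. The log2 difference of more against less anxious was -0.11 (SE 0.10, 95% interval -0.32 to 0.10).

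Abhd12, which hydrolyzes 2-AG but is best known for degrading lysophosphatidylserine, lies on chromosome 2 at 150832493 to 150904741 (minus strand). It was at 244, 222 and 233 CPM in less anxious, 240.2, 193, 195 and 239 CPM in anxious and 210.5, 222, 293 and 264 CPM in more anxious mice. The more anxious state held the 2 highest values (mice 9 and 10) along with values inside the range of the other states. Its log2 difference of more against less anxious was 0.13 (SE 0.10, 95% interval -0.09 to 0.34). The contrast of more anxious with anxious mice gave 0.18 (SE 0.09) and the smallest unadjusted p of the 8 genes in any contrast, 0.0698, which became 0.999 after adjustment.

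Anandamide arises in part through the phospholipase D that Napepld encodes, and is broken down by fatty acid amide hydrolase, encoded by Faah. Napepld (chromosome 5, 21662901 to 21701396, minus strand) was at 17.3, 18.2 and 13.6 CPM in less anxious, 15.7, 22.4, 19.6 and 17.6 CPM in anxious and 18.2, 19.5, 18.5 and 17.1 CPM in more anxious mice. Faah (chromosome 4, 115967145 to 116017926, minus strand) was at 104, 113 and 83.6 CPM in less anxious, 88.6, 134, 115 and 112 CPM in anxious and 98.3, 122, 124 and 104 CPM in more anxious mice. Mouse 12 was lowest and mouse 4 highest for both genes. The log2 differences of more against less anxious were 0.13 for Napepld (SE 0.13, 95% interval -0.16 to 0.41) and 0.14 for Faah (SE 0.14, 95% interval -0.17 to 0.44).

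**Figure D2:**
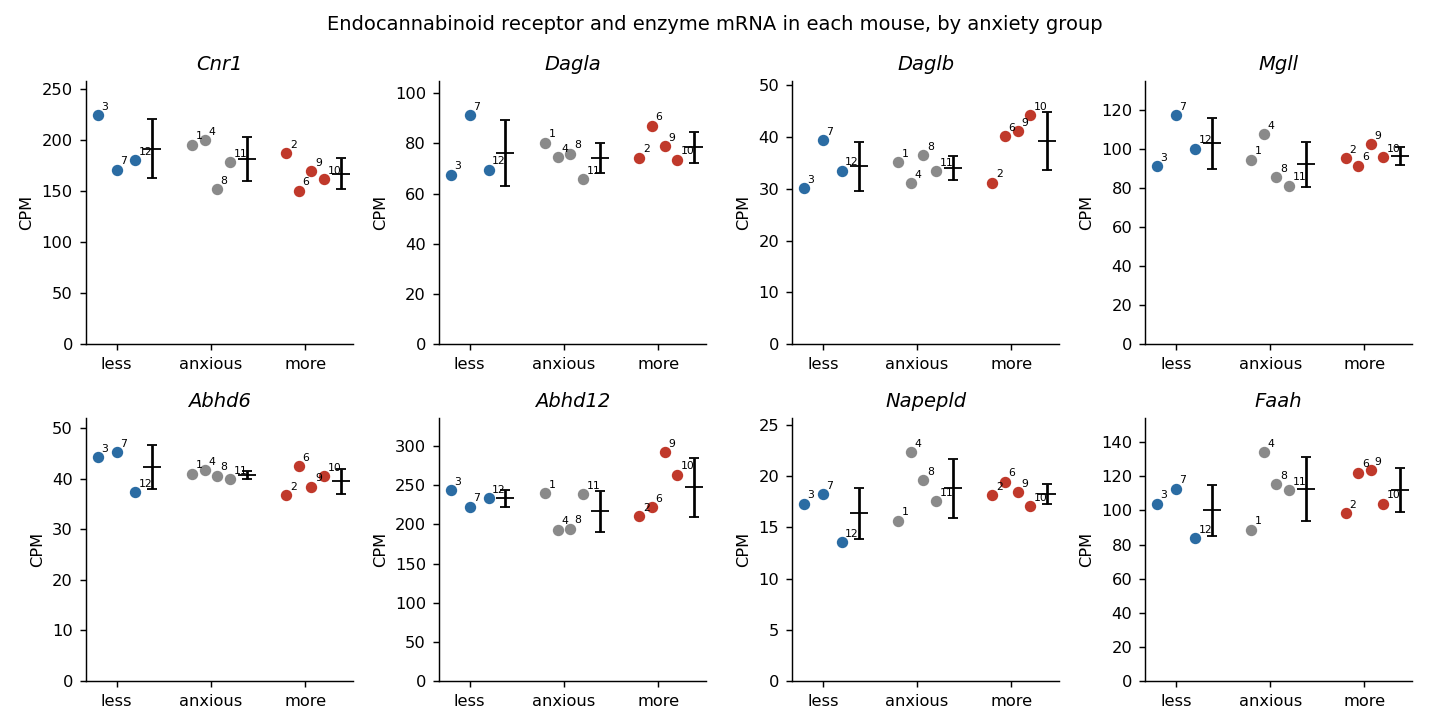
CPM of each gene in each of 11 mice, by predicted anxiety state. Points carry the mouse number, the bar is the mean ± SD of the state, and each vertical axis starts at 0. For all 8 genes the less and more anxious mice overlap.

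No gene of the set was called in any comparison of states. Across the 3 states, 0 of 8 passed an adjusted p of 0.05 in edgeR's quasi-likelihood test and 0 of 8 had an unadjusted p below 0.05. The same counts came from the DESeq2 likelihood ratio test. Over all 26963 genes edgeR called 0.00742% at the adjusted threshold, and 6.35% had an unadjusted p below 0.05, so a count of 0 among 8 genes is near what that background gives. Adjusted p-values of the members ran from 0.899 to 0.978 across the states. In more against less anxious mice the background was 0.0445% called and 8.83% below an unadjusted 0.05. In anxious against less anxious it was 0.00371% and 4.74%, and in more anxious against anxious 0% and 4.57%. Members contributed 0 in each of these 3 contrasts by either measure. Less and more anxious mice did not overlap for 0 of the 8 genes, beside 8.4% of all genes tested.

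The intervals bound the size of the differences. Over the 8 genes the log2 difference of more against less anxious ran from -0.15 to 0.18, with 5 genes above 0 and a median of 0.07, beside a median of 0.00 over all genes tested. The 95% intervals of the 8 genes together spanned 0.768-fold to 1.37-fold in that contrast. They spanned 0.750-fold to 1.36-fold in anxious against less anxious and 0.792-fold to 1.38-fold in more anxious against anxious mice. A p above the threshold does not show that the states had equal levels, and differences inside these spans were not resolved by 3 and 4 mice.

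**Figure D3:**
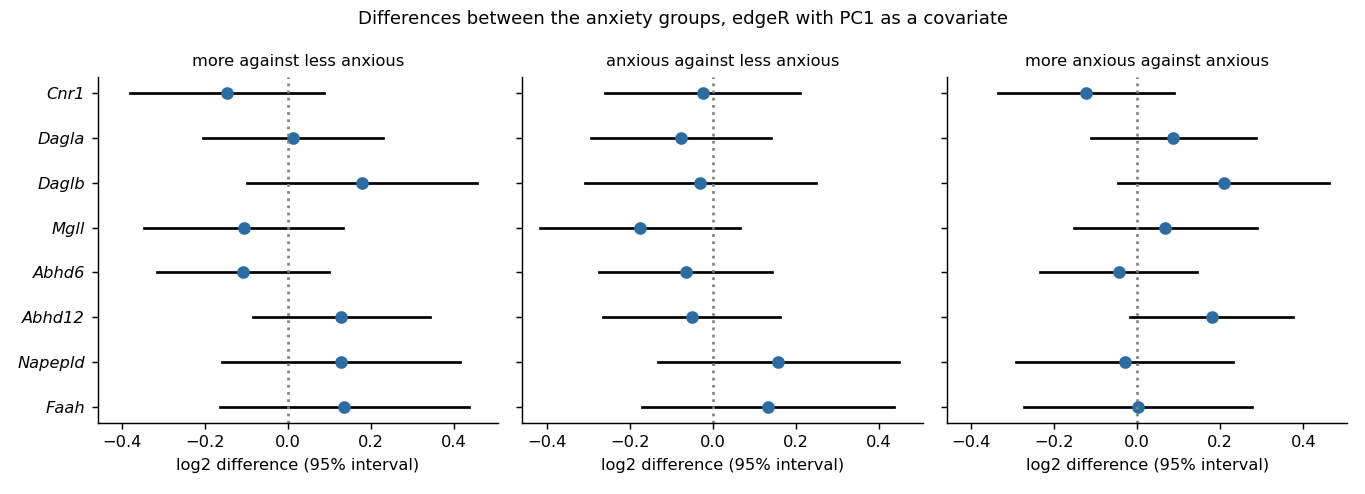
Fitted log2 difference (point) and 95% interval (line) of each gene in the 3 contrasts between states, from the edgeR fit with PC1 as a covariate. Every line crosses the dotted line at 0, and the points lie between -0.17 and 0.21.

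Other genes of the endocannabinoid pathway gave the same count across the states. The list held 26 genes, all of them tested, of which 0 were called across the states and 0 had an unadjusted p below 0.05 in that test. Their median log2 difference of more against less anxious was -0.004, with 13 above and 13 below 0. Among the other receptors, Cnr2, which encodes the immune cannabinoid receptor CB2, was at 0.546 ± 0.194, 0.389 ± 0.122 and 0.511 ± 0.12 CPM in less anxious, anxious and more anxious mice. These are 10 to 26 estimated counts per library. Gpr55, a receptor for lysophosphatidylinositol, was at 1.91 ± 0.548, 1.86 ± 0.528 and 1.89 ± 0.574 CPM. Gpr18 gave 0 to 3 and Gpr119 1 to 5 estimated counts per library, too few to compare. Trpv1, a cation channel that anandamide can open, was at 0.182 ± 0.0603, 0.38 ± 0.279 and 0.494 ± 0.338 CPM on 5 to 41 estimated counts, with adjusted p = 0.847 across the states. Cnrip1, whose product binds the tail of CB1, was at 81.4 ± 16.5, 96.6 ± 12.6 and 93.1 ± 4.15 CPM (log2 difference of more against less anxious 0.18, SE 0.14).

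Behavior gave a second way to order the mice, and one that did not use expression. The measures were percent time and percent distance in the light, percent time in the open arms, total arm entries and the box:zone ratio of the social test at 3, 5 and 10 min. Each was fitted alone as a standardized number, so that a coefficient is the log2 change per SD of the measure. Of 56 tests on the 8 genes, 0 passed an adjusted p of 0.05, beside 0.00796% of the tests on all genes. An unadjusted p below 0.05 came from 1 of 56, beside 6.35% of all tests. Coefficients ran from -0.07 to 0.11 log2 per SD, and the 95% intervals together spanned 0.884-fold to 1.15-fold per SD.

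That 1 test was Abhd12 with the box:zone ratio at 3 min, for which mouse 4 had no value. The ratio was 1.70, 0.236 and 0.691 in less anxious mice 3, 7 and 12. It was 0.943, 1.15 and 0.989 in anxious mice 1, 8 and 11, and 0.801, 0.797, 1.84 and 1.45 in more anxious mice 2, 6, 9 and 10. Mice 9, 3 and 10 had the highest ratios and also the 3 highest Abhd12 levels. The coefficient was 0.11 log2 per SD (SE 0.05, 95% interval 0.01 to 0.21, unadjusted p = 0.0351, adjusted p = 0.603), in a measure for which 7.65% of all genes had an unadjusted p below 0.05. Without mouse 9 the coefficient was 0.06, and the unadjusted p no longer lay below 0.05. Abhd12 also moved with PC1 of expression over the 11 mice (Pearson r = -0.703, permutation p = 0.0155, adjusted p = 0.163 over 24 relations of the 8 genes with 3 library measures; Spearman's rho = -0.782, permutation p = 0.00636). Leaving out mice 8 and 6, the farthest from the median of PC1, gave r = -0.646. With PC1 as a covariate the coefficient was likewise 0.06, with an unadjusted p above 0.05. The sign of PC1 was set so that it ran negative with the 10 min ratio, so that sign is not a result. The paper reports its own PC1 as negatively correlated with the social measures, and its methods call these correlations slight. Whether PC1 shared variation with the 3 min ratio in these mice was not tested, and this fit cannot tell the 2 apart.

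For the other measures the smallest unadjusted p among the 8 genes belonged to Mgll at 10 min (-0.07 log2 per SD, SE 0.04, edgeR adjusted p = 0.737) and at 5 min (-0.06, SE 0.05, adjusted p = 0.867). Abhd6 had the smallest for time in the light (0.05, SE 0.04, adjusted p = 0.9997) and for distance in the light (0.05, SE 0.04, adjusted p = 0.898). Abhd12 had it for open-arm time (-0.07, SE 0.05, adjusted p = 0.926) and Cnr1 for total entries (-0.06, SE 0.05, adjusted p = 0.871).

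**Figure D4:**
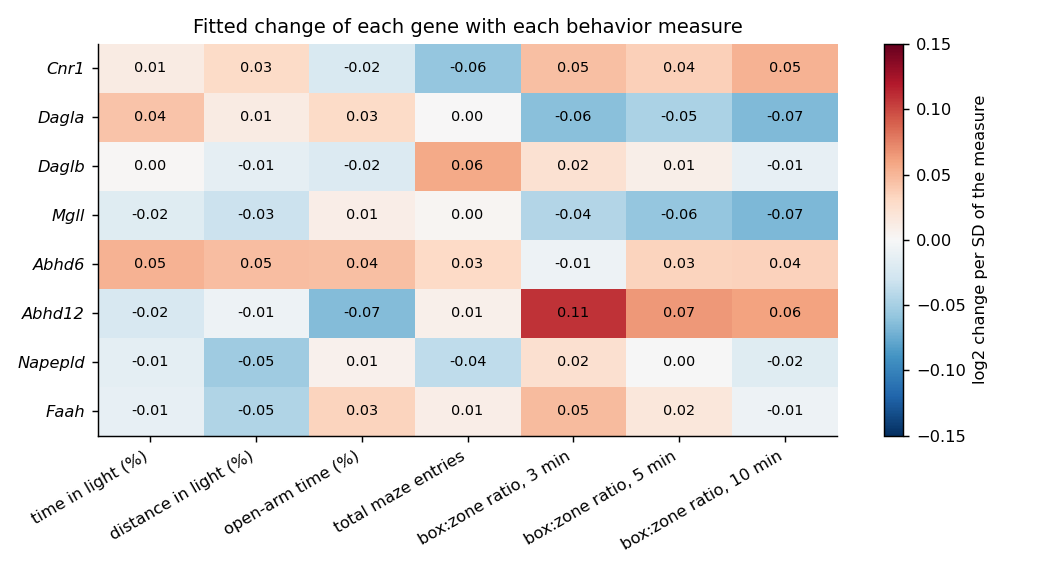
Fitted log2 change of each gene per SD of each behavior measure, from edgeR with 1 measure at a time (10 mice for the 3 min ratio and 11 for the others). Red is positive and blue negative, and the number in each square is the coefficient. The largest is 0.11 for Abhd12 at 3 min.

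In the wider pathway list, 0 of 182 tests on the behavior measures were called and 19 had an unadjusted p below 0.05, which is 10.4% beside 6.35% of all tests. The 19 came from 11 genes, and their smallest adjusted p was 0.438. Fabp5, an intracellular carrier of anandamide, had positive coefficients with the box:zone ratio at 3, 5 and 10 min (0.14, 0.12 and 0.12 log2 per SD, SE 0.04 each), measures that overlap in time. Gpr55 had negative ones at 3 and 5 min (-0.31 and -0.24, SE 0.11 each). Ptgs2, which encodes the cyclooxygenase that oxidizes 2-AG, had -0.35 (SE 0.13) at 3 min. Cnrip1 had 0.12 (SE 0.05) and the G protein subunit gene Gna11 -0.10 (SE 0.04) at 3 min. These values describe genes selected for a low unadjusted p.

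Others concerned the light/dark box and the maze. Plcb4, a phospholipase C that acts upstream of 2-AG, had 0.18 (SE 0.06) with distance and 0.16 (SE 0.06) with time in the light, and Plcb1 had 0.14 (SE 0.06) with distance and 0.14 (SE 0.06) with total entries. The muscarinic receptor gene Chrm3 had 0.22 (SE 0.07) with total entries and 0.17 (SE 0.08) with distance in the light. Pla2g4e, an enzyme that makes the precursor of anandamide, had -0.18 (SE 0.09) with time in the light. Trpv1 had -0.68 (SE 0.22), -0.58 (SE 0.25) and -0.55 (SE 0.24) with distance in the light, time in the light and open-arm time, at 5 to 41 estimated counts per library.

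Within the set, 1 pair of genes moved closely together over the 11 mice. Of the 28 pairs, 24 had an absolute Pearson r of log2 CPM below 0.5, and the median r was 0.114. Napepld and Faah, on different chromosomes, had r = 0.916 (permutation p = 5e-05, adjusted p = 0.0014 over the 28 pairs) and Spearman's rho = 0.909 (permutation p = 0.00023). Leaving out mice 12 and 4, the farthest from the median of Napepld, gave r = 0.822. Among 12158 other genes with a mean of at least 5 CPM, Faah ranked 3rd by correlation with Napepld and Napepld ranked 2nd with Faah. The pair was chosen as the strongest of the 28 after the values were seen.

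Both genes also moved with a library measure. The slope of each library's log2 CPM on transcript GC content had r = 0.595 with Napepld (permutation p = 0.0523) and r = 0.645 with Faah (permutation p = 0.0328), with adjusted p = 0.179 and 0.163 over the 24 relations. Given that slope the correlation of the pair was 0.867, given PC1 0.904 and given both 0.900. Within the states, as deviations from each state's mean, it was 0.908, and leaving out each mouse in turn gave 0.873 to 0.951. Transcript GC was 45.8% for Napepld and 52.4% for Faah.

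The 250 bases before the RefSeq start of each gene (GRCm38.p6, gene strand) are printed because these 2 genes moved together. Capitals mark matches to the motifs searched, each on both strands. These were the GC box with the letters GGGCGG, the CCAAT box with the letters its name spells, and the TATA box with the letters TATAAA. The cyclic AMP response element (CRE) was searched as TGACGTCA, the E-box as CACGTG, and the motif of the factor YY1 as AAGATGGC. None of these letter strings overlaps another in the windows printed.
Napepld, chr5:21701623-21701872, minus strand: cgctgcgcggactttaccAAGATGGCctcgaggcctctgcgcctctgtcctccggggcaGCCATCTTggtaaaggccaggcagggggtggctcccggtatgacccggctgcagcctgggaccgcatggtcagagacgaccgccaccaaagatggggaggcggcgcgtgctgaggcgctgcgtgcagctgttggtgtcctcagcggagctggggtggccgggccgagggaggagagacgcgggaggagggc
Faah, chr4:116017925-116018174, minus strand: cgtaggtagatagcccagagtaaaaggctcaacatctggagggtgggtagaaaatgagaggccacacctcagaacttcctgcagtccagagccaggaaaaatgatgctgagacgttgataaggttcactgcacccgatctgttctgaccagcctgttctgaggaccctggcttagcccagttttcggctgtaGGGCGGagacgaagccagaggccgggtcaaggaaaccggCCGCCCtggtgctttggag
The Napepld window held 2 YY1 motifs and none of the other 5, with 69.6% GC. The Faah window held 2 GC boxes and none of the other 5, with 55.6% GC. Over 32851 RefSeq windows of 250 bases, 1.56% held the YY1 motif and 32.7% a GC box, while 33.8% held a CCAAT box, 12.4% a TATA box, 1.55% a CRE and 6.02% an E-box. The YY1 motif was added to the search after the sequence was seen. The windows shared none of the 6 motifs, and a match is a description of letters only.

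Cnr1 and Daglb ran opposite to each other, with r = -0.773 (permutation p = 0.00567, adjusted p = 0.0794 over the 28 pairs) and Spearman's rho = -0.836 (permutation p = 0.00214). Leaving out mice 3 and 6, the farthest from the median of Cnr1, gave r = -0.686. Given the GC slope it was -0.653, given PC1 -0.820 and given both -0.753. Within the states it was -0.732, and leaving out each mouse in turn gave -0.831 to -0.712. Cnr1 itself had r = -0.718 with the GC slope (permutation p = 0.0131, adjusted p = 0.163) and Daglb 0.547 (permutation p = 0.0807, adjusted p = 0.215). Rac1, which shares exon bases with Daglb, had r = 0.856 with Daglb (permutation p = 0.00124, rho = 0.882) and r = -0.775 with Cnr1. By correlation with Daglb, Rac1 ranked 46th among other genes. Whether the counting used strand is not given in the sources used here, so reads of Daglb and Rac1 over the shared bases may not be told apart.

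**Figure D5:**
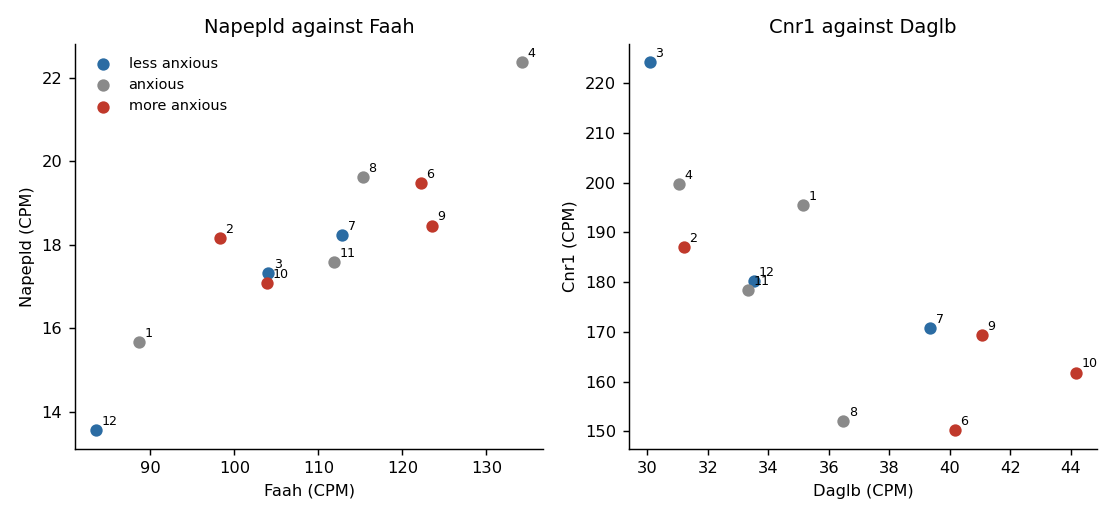
CPM of Napepld against Faah and of Cnr1 against Daglb in 11 mice, colored by predicted anxiety state and labeled with the mouse number. Napepld and Faah are both lowest in mouse 12 and highest in mouse 4, and Cnr1 is highest in mouse 3, where Daglb is lowest. Neither axis starts at 0.

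Genes whose log2 CPM ran closest to each member over the 11 mice were listed by Pearson r, as a description. For Cnr1 they were Adam10 (0.967), Fam199x (0.954) and Tbc1d32 (0.944). For Dagla they included Iqsec2 (0.903) and Map1a (0.891), and for Daglb they were Smarcd1 (0.938), Ndrg4 (0.936) and Plxnd1 (0.913). Mgll ran closest to Sall1 (0.892), Scarb1 (0.843) and Slc2a1 (0.828). Abhd6 ran closest to Prickle2 (0.902), Stard8 (0.870) and Nuak1 (0.860), and Abhd12 to Pcdhb20 (0.962), Reep5 (0.918) and Cadps (0.904). Beside each other, Napepld ran closest to Pex10 (0.937) and Dnajb1 (0.922), and Faah to Nipsnap3b (0.942) and Sh3gl1 (0.893). With 12158 genes and 11 mice, high values of r occur for every gene.

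Ratios of a synthetic to a degrading enzyme do not depend on scaling between libraries. Dagla over Mgll, for 2-AG, was 0.743, 0.779 and 0.695 in less anxious mice 3, 7 and 12. It was 0.850, 0.693, 0.888 and 0.810 in anxious mice 1, 4, 8 and 11, and 0.781, 0.953, 0.770 and 0.768 in more anxious mice 2, 6, 9 and 10. The log2 ratio had r = 0.405 with the order of the states (exact two-sided permutation test over 11550 arrangements, p = 0.217). Without mouse 6 that r was 0.241, and without mouse 12 it was 0.264. Napepld over Faah, for anandamide, stayed between 0.149 and 0.185 in all 11 mice, with an SD of 0.08 on the log2 scale, and had r = 0.0104 with that order (exact permutation p = 0.974).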

How the data were processed

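Amygdala mRNA of 12 mice was sequenced as stranded single-end libraries on 1 run. The authors quantified reads with Salmon against mm10 and summed them to genes with tximport, and the deposited table holds estimated counts per gene as whole numbers, not normalized. Table columns were matched to samples by the number in their titles.

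Tests used edgeR 4.0.16 (quasi-likelihood F-test, robust, TMM factors) in R 4.3.3 on the 26963 genes with at least 10 counts over the 11 mice with a state, with Benjamini-Hochberg adjustment over all of them. The 3 states were fitted together with the PC1 score as a covariate, and the 7 behavior measures singly without it. The SE is the log2 difference over the square root of F. CPM used TMM factors, and log2 CPM a prior count of 2. Correlations used 100000 permutations. DESeq2 1.42.0 was an alternative, as were other scalings, filters and covariates and leaving out each mouse. The fit across the 3 states was tested on simulated counts in which 200 of 26963 genes were changed. It made 180 calls, of which 19 were false. Of the genes with a log2 change of size 1 it recovered 69%, and of those with size 2 it recovered 92%.

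The 8 genes, the lists and the named genes (all members, other receptors, any pathway gene with an unadjusted p below 0.05, and the 3 closest genes by correlation) were chosen with earlier results of these data known. Of the genes this rule names, 2 are not reported here. Of the deposited identifiers, 99.1% had a GENCODE M21 entry. Depth limits the rare receptors most, at a few counts per library.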

Additional observations from a re-analysis of the deposited data

Results flagged for a closer look

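The Dagla to Mgll ratio of mouse 6 stood apart from the other more anxious mice. Its log2 ratio was -0.0689, whereas mice 2, 9 and 10 had -0.36, -0.38 and -0.38, and the gap to the nearest of them took up 0.923 of the range of the 4 mice. Mouse 6 had Dagla at 87.0 CPM, the highest of its state, and Mgll at 91.3 CPM, the lowest of its state. This was 1 of 20 sets of values examined in this way, and chance alone marks about 1 in 20. Without mouse 6 the correlation of this log2 ratio with the order of the states was 0.241, beside 0.405 with it. Although labeled more anxious, mouse 6 had the highest time in the light (46.6%), distance in the light (41.9%) and open-arm time (29.2%) of all mice.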

How the results depend on the processing

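The count of called members stayed at 0 across the states and for the behavior measures under every alternative run, as did that of the 26 other pathway genes across the states. The number of all genes called across the states was 2. It was 9 with all genes that had a read, 205 with DESeq2 and 22 with the order of the states as a number. It was 0 with a mean of at least 1 CPM, 0 without PC1 and 1 without robust fitting, and 0 to 5 when each mouse was left out. The cause was not tested.

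The log2 difference of more against less anxious for Dagla turned to -0.0135 with library totals and ran from -0.0600 to 0.105 when each mouse was left out. That for Mgll ran from -0.179 to 0.00139, the last without mouse 7. The other 6 genes kept their direction but not their size: leaving out each mouse gave -0.214 (without mouse 2) to -0.0829 (9) for Cnr1, 0.0912 (10) to 0.308 (7) for Daglb, -0.186 (12) to -0.0327 (3) for Abhd6, 0.0480 (3) to 0.283 (7) for Abhd12, 0.0241 (12) to 0.280 (3) for Napepld and 0.0191 (9) to 0.256 (3) for Faah. The correlation of the Dagla to Mgll ratio with the order of the states ran from 0.241 (6) to 0.475 (10). The correlation of the Napepld to Faah ratio with the order of the states, 0.0104, was -0.0363 on ranks and -0.318 to 0.290 when each mouse was left out. Without mouse 2, Daglb and Abhd12 had unadjusted p = 0.0191 and 0.0337 across the states in edgeR. The unadjusted p of Abhd12 with the 3 min ratio, 0.0351, rose above 0.05 with library totals, ranks, PC1 as a covariate or mouse 5 included, and without mouse 2, 6, 9, 10 or 11, the highest being 0.267. In its place Faah with the 3 min ratio (0.0358, PC1 as a covariate) and Cnr1 with time in the light (0.0459, without mouse 6) fell below 0.05 unadjusted in edgeR. No paired analysis was possible because the states hold different mice. Checks on the 2 pairs of genes were chosen after seeing the data. Depth limits the receptors with few counts, and 3 to 4 mice per state limit the rest.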

Other observations

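Mouse 5, which the labels put in no state, was removed by the paper as an outlier in expression. It had 32682574 estimated counts and 23768 genes with a read, beside 26378 to 28196 genes in the other mice. On a scale fitted over all 12 libraries its Dagla level was 62.7 CPM and its Mgll level 75.3 CPM, below the lowest of the other 11 mice (65.8 and 81.2 CPM). Its Abhd6 level of 46.9 CPM was above their highest, 45.3 CPM. Cnr1 at 169 CPM, Daglb at 33.1 CPM, Abhd12 at 252 CPM, Napepld at 15.9 CPM and Faah at 102 CPM lay within the range of the others. With mouse 5 included, the correlation of Napepld with Faah was 0.909 and that of Cnr1 with Daglb -0.732.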
